A study of Rattus norvegicus with 4 samples.

Results

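The 10 genes described here encode receptors and signalling partners with which macrophages bind and engulf particles: the Fc receptors Fcgr1a and Fcgr2b, the adaptors Fcer1g and Tyrobp, the lectin receptor Clec7a, the scavenger receptors Cd36, Marco and Msr1, the receptor kinase Mertk and the integrin subunit Itgb2. They were chosen by name, with earlier results of these data known. Their probes were found by matching the transcript accession of each gene spot to the RefSeq gene table. All 10 had a probe, with 12 probes and 41 spots per array among 45598 gene probes and 16581 named genes. The samples were 4 biological replicate cultures of NR8383, a rat alveolar macrophage line grown from lung lavage, at 20 passages. Each had been cultured for 48 h and had received NRCWE006, a carbon nanotube of several concentric walls, for 4 h at 1 cm2 of nanotube per cm2 of culture. The RNA of each was hybridised to 1 array. Unexposed cultures belong to the design of the study too and were not analysed here. No value below is therefore an effect of the exposure. The arrays can show which of these receptors could be measured after exposure, and by how much their values varied over 4 cultures. A cell line also lacks the neighbouring cells and surfactant of the lung.

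Macrophages recognise particles through several classes of receptor. Fc receptors bind the constant part of antibodies on a coated target. Most activating ones depend on small adaptors with an immunoreceptor tyrosine-based activation motif (ITAM), which Src family kinases phosphorylate and to which the kinase Syk then binds. Scavenger receptors bind uncoated polyanionic or lipid ligands directly, and class A members such as MARCO are the receptors best known for uptake of uncoated particles by alveolar macrophages. Mertk recognises dying cells through bridging proteins, and Itgb2 is the shared beta chain of the leukocyte integrins, complement receptor 3 among them.

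The signal is the background-subtracted (processed) spot brightness in scanner units. For some of the dimmest spots it nearly equalled its own error, as for Marco on replicate 1 (3.87 and 3.88). There the median pixel brightness minus local background was 5.5. Signals this low are therefore read as a floor and not as measured brightness. A probe was called well above background on an array by the scanner software's flag, in over 50% of its spots, and a gene was called detected when a probe had this flag on all 4 arrays. The arrays differed in brightness: replicates 1 to 4 had a 75th percentile over detected probes of 384, 281, 236 and 223. Their negative control spots had 95th percentiles of 4.04, 3.53, 4.03 and 6.71. Levels below are log2 signals relative to that 75th percentile of the same array. Replicate 4 stood apart, with 656 gene spots flagged as non-uniform against 9 to 34 on the other arrays and 2952 probes that passed on it alone, against 96 to 918 for each of the others. No gene spot was saturated. With 4 arrays the precision is limited, and levels of different probes cannot be set against each other.

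Of the 10 genes, 6 were detected: Fcgr1a, Fcgr2b, Fcer1g, Tyrobp, Clec7a and Cd36. Among all named genes measured on every array, 1946 of 16419 (11.9%) were. The 10 genes were chosen with earlier results known, so these shares do not test whether the receptors were detected more often. The 2 Fc receptors, both adaptors and the lectin receptor were among the 6 detected, while of the 3 scavenger receptors only Cd36 was. Marco and Mertk were well above background on replicate 4 alone, Itgb2 on 2 arrays and Msr1 on none. The same 6 genes were detected without any single replicate, when 3 of 4 arrays sufficed and when negative control spots set the limit.

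**Figure D1:**
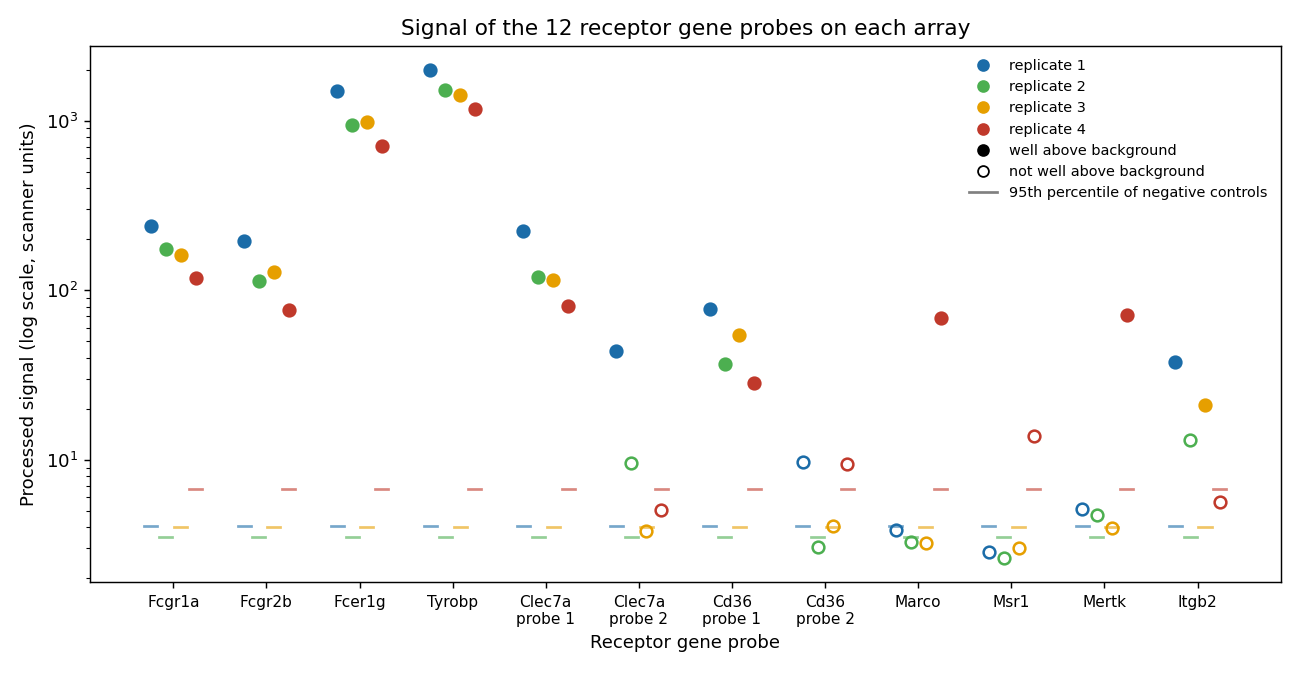
Processed signal (log axis, scanner units) of each of the 12 probes of the 10 genes on the 4 arrays, with filled points for probes well above background, open points for those not, and short lines at each array's 95th percentile of negative control spots. The 6 detected genes each have 1 probe with 4 filled points, highest on replicate 1 and lowest on replicate 4, whereas Marco and Mertk have a single filled point, on replicate 4, at signals of 68.8 and 71.3.

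Fcgr1a encodes the high-affinity receptor for immunoglobulin G, which activates the cell through the adaptor encoded by Fcer1g. Its probe (A_43_P15904), printed once, had signals of 239, 174, 161 and 119 on replicates 1 to 4. All were far from background: even the lowest, on replicate 4, stood above the 95th percentile of that array's negative controls (6.71). After scaling, the levels were -0.68, -0.69, -0.55 and -0.91 (mean -0.71 ± 0.15, SD, n = 4). Replicate 4 lay lowest with this scaling, but with normexp background correction the levels were -0.63, -0.58, -0.33 and -0.56, and replicate 1 lay lowest. Normexp was run on median pixel signals with an offset of 50 added to every spot, which narrows log2 differences between dim spots.

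Fcgr2b encodes the low-affinity IgG receptor that inhibits, through an ITIM motif that recruits lipid phosphatases. Its probe (A_42_P735417) was printed 10 times per array, and all spots used were well above background. The signals were 194, 113, 129 and 76.7, and the levels -0.98, -1.31, -0.87 and -1.54 (mean -1.18 ± 0.30, SD, n = 4). Replicates 1 and 3 were high, and replicates 2 and 4 low. Spots on replicate 4 scattered most, between signals of 58.6 and 135 and with an SD of 0.41 on the log2 scale, against 0.11 to 0.17 on the other arrays. Rat IgG receptor genes are related in sequence, and whether the probe also binds transcripts of its relatives was not checked, as the files hold no probe sequences.

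Fcer1g encodes the common gamma chain, the ITAM adaptor that Fcgr1a needs for surface expression and signalling. Its probe (A_44_P1053404), printed 2 times, had signals of 1497, 941, 983 and 709. The 2 spots of an array had an SD of 0.09 log2 units on replicate 4 and of 0.01 to 0.05 on the others. The levels were 1.96, 1.74, 2.06 and 1.67 (mean 1.86 ± 0.18, SD, n = 4), with replicates 1 and 3 again above replicates 2 and 4.

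Tyrobp encodes DAP12, the ITAM adaptor of TREM2 and related receptors. Its probe (A_42_P807697), printed 10 times, had signals of 1979, 1524, 1414 and 1168, and every spot used was well above background. The levels were 2.37, 2.44, 2.58 and 2.39 (mean 2.44 ± 0.10, SD, n = 4). This was the smallest SD among the 6 detected genes, at percentile 10.0 of the SDs of 3208 detected probes. Replicate 3 lay above the other 3 arrays, which were close to each other.

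Clec7a encodes Dectin-1, which binds beta-glucan of fungal walls and signals through its own ITAM-like motif. The first of its 2 probes (A_44_P1085353), printed 2 times, had signals of 223, 120, 114 and 80.5 and was well above background on all arrays. Its levels were -0.79, -1.23, -1.04 and -1.47 (mean -1.13 ± 0.29, SD, n = 4). With this scaling replicate 1 was highest, unlike in the other detected genes of the 10. By unscaled signal all 6 were highest there, and with normexp Fcer1g was too (1.93). The second probe (A_64_P141160), printed once for the same transcript, had signals of 43.8, 9.60, 3.80 and 5.08 and was well above background on replicate 1 only. The probes thus disagreed on 3 arrays, and both were highest on replicate 1.

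Cd36 encodes a class B scavenger receptor that takes up oxidised lipoprotein and long-chain fatty acids and also binds dying cells. The first of its 2 probes (A_44_P1081705), printed 10 times, had signals of 77.0, 36.5, 54.8 and 28.3, and every spot used was well above background. On replicate 4 its signal was 4.22 times the 95th percentile of negative controls, against at least 10.4 times on each other array. The levels were -2.32, -2.94, -2.11 and -2.98 (mean -2.59 ± 0.44, SD, n = 4), the largest SD among the 6, at percentile 84.9 of detected probes. The second probe (A_44_P1144488), printed once, had signals of 9.75, 3.04, 4.06 and 9.44 and was well above background on no array. The call for Cd36 therefore rests on 1 of its 2 probes.

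Marco, the class A scavenger receptor with a collagen-like stalk that binds bacteria and uncoated particles, was measured by 1 probe printed once (A_44_P175833). Its signals were 3.87, 3.27, 3.21 and 68.8. On the first 3 arrays they lay below the 95th percentile of negative controls. On replicate 4 the probe was well above background. Mertk, the receptor kinase for dying cells, had 1 probe printed once (A_43_P12346) with signals of 5.11, 4.73, 3.93 and 71.3, likewise well above background on replicate 4 alone. Unlike Marco, Mertk also passed the limit set by negative control spots on replicates 1 and 2. There its signal was 1.26 and 1.34 times their 95th percentile. Msr1, the class A receptor for modified lipoprotein, had 1 probe printed once (A_44_P928825) with signals of 2.84, 2.65, 3.00 and 13.9. It too was highest on replicate 4, but it was well above background on no array.

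High single spots on replicate 4 were frequent over the whole array. Of 42749 probes printed once and measured on every array, 2934 (6.86%) were well above background on replicate 4 alone, against 0.208% to 2.01% for each other array alone. Among probes printed 10 times the share on replicate 4 alone was 0.444%, but those need over 50% of their spots to pass, so that 1 high spot cannot make the call. None of the 4 genes that were not detected had a probe printed more than once. The spots of Marco and Mertk were also unlike others within themselves. The processed signal of Marco on replicate 4 was 3.28 times the median pixel brightness minus local background (21), and that of Mertk 2.23 times (32). For probes printed once and detected on all arrays, this ratio on replicate 4 had a median of 0.905 and ran between 0.697 (10th percentile) and 1.12 (90th percentile), and 0.361% exceeded 2. Of the probes well above background on replicate 4 alone, 15.9% exceeded 2. Msr1 had a ratio of 0.631. The part of such spots in the values of Marco and Mertk on replicate 4 was not tested. Without that array, neither gene was well above background anywhere.

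**Figure D2:**
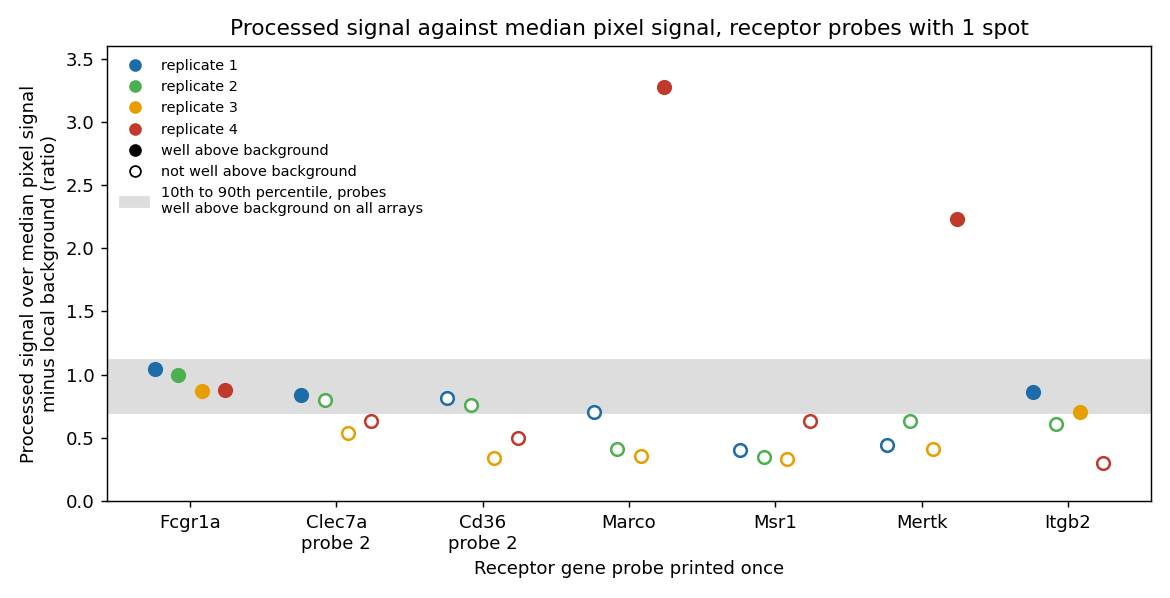
Ratio of the processed signal to the median pixel signal minus local background (no unit) for the 7 probes of these genes that were printed once, on each of the 4 arrays, with filled points for probes well above background. The grey band spans the lowest 10th to the highest 90th percentile over arrays among probes printed once and detected on all arrays. Marco at 3.28 and Mertk at 2.23 on replicate 4 lie above the band, and the 4 filled points of Fcgr1a lie within it.

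Itgb2 encodes CD18, without which leukocyte integrins do not reach the surface. Its probe (A_42_P591344), printed once, had signals of 37.9, 13.1, 21.1 and 5.67. It was well above background on replicates 1 and 3 and not on replicates 2 and 4. Its levels were -3.34 and -3.48 on those 2 arrays. The signal on replicate 4 lay below the 95th percentile of that array's negative controls. With the limit set by negative control spots, Itgb2 was above it on 3 arrays.

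All 6 detected probes had their highest signal on replicate 1 and their lowest on replicate 4. This was the pattern of the arrays as a whole, since 85.4% of detected probes were brightest on replicate 1 and 56.2% dimmest on replicate 4. After scaling, 5 of the 6 were highest on replicate 3 (all except Clec7a) and 5 were lowest on replicate 4 (all except Tyrobp), against 23.0% and 34.8% of all detected probes. This order depended on the processing: 4 were highest on replicate 3 and 4 lowest on replicate 4 with normexp, 5 and 6 after quantile normalization, and 1 and 6 when scaled by all gene probes. The shares of all detected probes were 24.5% and 19.3% with normexp, 25.8% and 60.0% after quantile normalization, and 9.16% and 96.4% when scaled by all gene probes. All 6 lay lower on replicate 4 than the mean of the other arrays, by between 0.07 log2 units for Tyrobp and 0.52 for Cd36, as did 51.7% of detected probes. The size depended on the processing too. For Cd36 the difference was -0.52, with -1.58 after quantile normalization and -0.02 after normexp background correction, while the median of all detected probes moved to -0.30 and 0.10. The offset of 50 in normexp narrows differences of a probe as dim as that of Cd36, and its part here was not tested. None of the 6 ranged over more than 2-fold between arrays, against 14.9% of detected probes, but 6 did when scaled by all gene probes, 5 without scaling and 1 after quantile normalization. Their median SD was 0.236, and that of all detected probes 0.231.

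Tyrobp, Fcgr2b and Cd36 were printed 10 times, so that their differences between arrays could be set against the scatter of spots. All 3 differed between arrays by limma's moderated F test, with adjusted p = 0.00307 for Tyrobp, 2.78e-06 for Fcgr2b and 7.02e-09 for Cd36. Such a call is common here, as 81.0% of the 1350 probes tested passed, and 74.0% of those among them that were detected. By pair of arrays the share of probes that passed was 40.9% between replicates 2 and 1, 50.4% between 3 and 1, 71.3% between 4 and 1, 44.1% between 3 and 2, 61.9% between 4 and 2 and 66.5% between 4 and 3. For Cd36, replicates 1 and 3 were above replicates 2 and 4, by between 0.62 ± 0.12 and 0.87 ± 0.12 log2 units (SE, adjusted p between 1.41e-07 and 1.81e-05 by limma over all pairs of arrays and probes). Replicate 4 differed from replicate 2 by -0.03 ± 0.12 (adjusted p = 0.838, limma) and replicate 3 from replicate 1 by 0.21 ± 0.12 (adjusted p = 0.130, limma). With this scaling these neighbours did not differ beyond the spread of spots. Replicates 2 and 4 lay apart after quantile normalization (5.402 and 4.194) and when scaled by all gene probes (3.255 and 1.489), so that their closeness depended on the scaling. With normexp the Cd36 levels were -1.69, -1.83, -1.38 and -1.66, so that replicate 4 lay slightly above replicate 1 and the order of these arrays turned. For Fcgr2b the same pairs of neighbours gave -0.23 ± 0.11 (adjusted p = 0.0651, limma) and 0.11 ± 0.11 (SE), and neither passed with this scaling. For Tyrobp, replicate 3 was above replicates 1, 2 and 4 by 0.22, 0.14 and 0.19 log2 units (adjusted p = 0.00116, 0.0291 and 0.00425, limma), and no pair among the other 3 arrays passed. The call for Tyrobp was lost without replicate 3 (adjusted p = 0.446, limma) and with normexp (adjusted p = 0.106, limma). Each culture had 1 array, so the spread of spots does not measure the spread between cultures, and a culture's RNA cannot be told apart from its labelling and hybridisation.

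**Figure D3:**
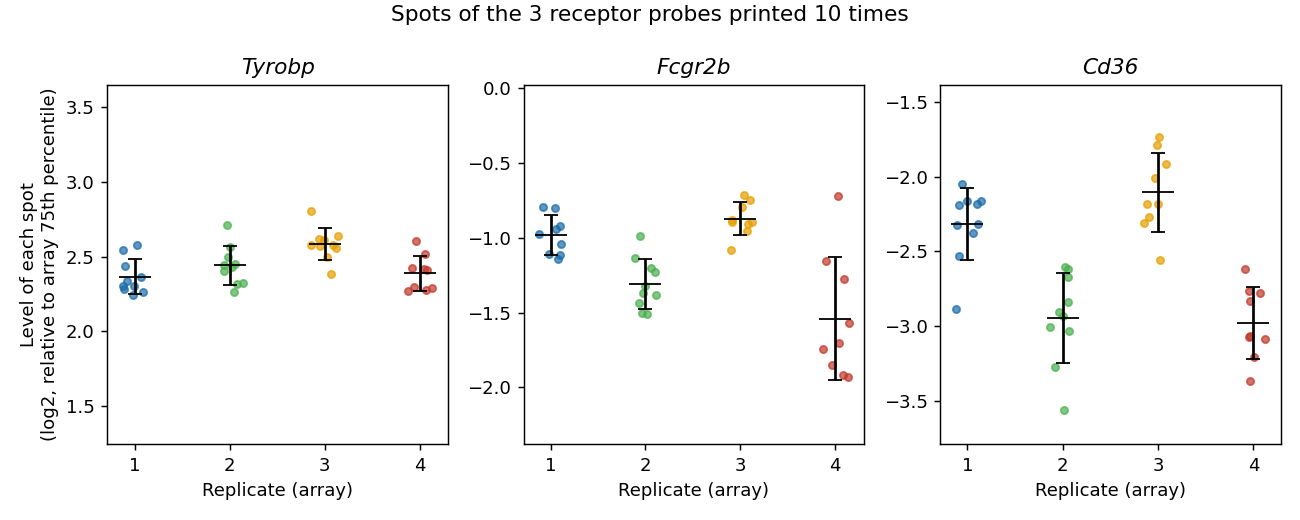
Level of each spot (log2, relative to the array's 75th percentile over detected probes) for the probes of Tyrobp, Fcgr2b and Cd36, which were printed 10 times per array. Points are spots kept after flagged ones were left out, and bars give the mean ± SD over the spots of an array. Each panel spans the same number of log2 units. Replicates 1 and 3 lie above replicates 2 and 4 for Cd36 with this scaling (with normexp, replicate 4 lay above replicate 1), and the 4 arrays lie within 0.22 log2 units in their means for Tyrobp.

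The genes whose levels varied over the 4 arrays most like each receptor were sought among the other 1940 detected genes, by the root-mean-square difference of the centred log2 levels. The nearest were Paics and Cmpk1 for Cd36, both enzymes of nucleotide synthesis, at 0.062 and 0.069. Only 8 genes lay within 0.1 of Cd36, against 67 of Clec7a, 78 of Fcgr2b, 112 of Fcer1g, 169 of Fcgr1a and 190 of Tyrobp. The nearest to Fcgr2b were Ubxn4 and Hdgf (0.011 and 0.018), to Fcer1g RT1-A3 and Ybx3 (0.018 and 0.020), and to Clec7a Ttpal and Eif4g2 (0.027 and 0.045). Dok1 and Ppp1r15a were nearest to Fcgr1a (0.014 and 0.016), and Tex264 and Grb2 to Tyrobp (0.021 and 0.022). Among the receptors themselves, Fcgr1a and Fcer1g were the nearest pair, at 0.082, and Cd36 and Tyrobp the farthest, at 0.344. The 169 and 112 other genes within 0.1 of Fcgr1a and Fcer1g show that such nearness is not particular to this pair. All distances were computed with the scaling above only. With normexp, Fcgr1a was lowest on replicate 1 (-0.63) and Fcer1g highest there (1.93), so the nearness of this pair depended on the processing. These distances rest on 4 arrays, and many genes are near any flat profile.

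Genes of the same pathways were examined in 7 lists. Of 98 genes with a probe, 23 were detected (23.5%, against 11.9% of all named genes). A further 21 passed on at least 1 array and 54 never did. These lists too were chosen with earlier results known, so the higher share does not test detection. By list, Fc receptors (5 of 9), ITAM partners and inhibitory receptors (3 of 10) and downstream kinases and adaptors (7 of 20) had the larger shares detected. Scavenger (1 of 16), lectin (2 of 14), dying cell (2 of 12) and integrin genes (3 of 17) had smaller ones. The difference was not tested. The lists mix functions, such as ITAM partners with inhibitory receptors, so these counts do not describe ITAM signalling as such.

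Of 9 other Fc receptor and related genes, 5 were detected. Fcgr2a, an activating low-affinity IgG receptor, had signals of 1848, 1366, 1037 and 1062 (level 2.23 ± 0.07, SD, n = 4) on a probe printed 10 times. Fcgr3a, another activating receptor, had a level of -0.55 ± 0.15, and Fcgrt, the neonatal Fc receptor that recycles IgG, -2.69 ± 0.19 (SD, n = 4). Fcer1a and Fcer2, both receptors for IgE, were flagged well above background on none of the arrays.

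Of 10 further ITAM partners and inhibitory receptors, 3 were detected. Trem2, a lipid-sensing receptor that signals through the product of Tyrobp, had signals of 2493, 1869, 1570 and 1584 on a probe printed 10 times (level 2.75 ± 0.06, SD, n = 4). The adaptor gene Hcst, which encodes DAP10, had a level of -1.93 ± 0.43, and the inhibitory receptor gene Pilra 1.23 ± 0.08 (SD, n = 4). Treml1 and Cd300a passed on no array.

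Of 20 kinases and adaptors downstream, 7 were detected. They included Lyn at -1.92 ± 0.19 and Fgr at -3.31 ± 0.16 (SD, n = 4), both Src family kinases that phosphorylate ITAMs. Src itself and Btk passed on none. Syk, named here after its values were seen, had 2 probes printed once. The first had signals of 17.1, 11.3, 5.06 and 59.7 and was well above background on replicate 4 only, and the second had signals between 3.12 and 4.99 and was well above background on none.

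Other scavenger receptors were detected in 1 of 16 cases, Cd68, a lysosomal glycoprotein of phagocytes, with signals of 34.6, 16.3, 16.6 and 34.1. Scarb1 and Scarb2, of the same class B as Cd36, passed on no array. Of 12 receptors and bridging proteins for dying cells, 2 were detected: Sirpa, the inhibitory receptor that reads the self signal CD47, at 0.07 ± 0.13, and Cd47 itself at -1.96 ± 0.42 (SD, n = 4). Each of these calls rests on 1 probe printed once. The second Sirpa probe passed on no array, and the second Cd47 probe on replicates 1 and 3 only. Axl, a kinase of the Mertk family, and Pros1, a bridging ligand of Mertk, passed on none.

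Of 17 integrin and complement genes, 3 were detected: C5ar1, a receptor for the complement fragment C5a, at -3.30 ± 0.26, Fermt3, which activates leukocyte integrins, at -3.44 ± 0.33, and Tln1, which links integrins to actin, at -1.46 ± 0.22 (SD, n = 4). Itgam and Itgal, which are among the alpha chains that pair with Itgb2, passed on no array. Of 14 lectins and pattern receptors, 2 were detected, Clec4a1 at -2.26 ± 0.32 and Lgals3, which encodes galectin 3, at 1.89 ± 0.18 (SD, n = 4), whereas Clec4a and Clec4d passed on none.

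The label of the cells was set against marker genes. Of 10 macrophage genes, 6 were detected (against 11.9% of all named genes), among them Lyz2 and Spi1, while Csf1r and Adgre1 passed on no array. No marker of lymphocytes, of granulocytes and mast cells, or of fibroblasts passed on any array either (8, 9 and 9 genes). Of 11 lung epithelium markers none was detected and 2 were well above background on 1 array. Among all named genes measured on every array, 11652 of 16419 passed on none, so the lack of calls in lists this short says little about these cell types. The macrophage list was chosen with earlier results known, so its share does not test the label.

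**Figure D4:**
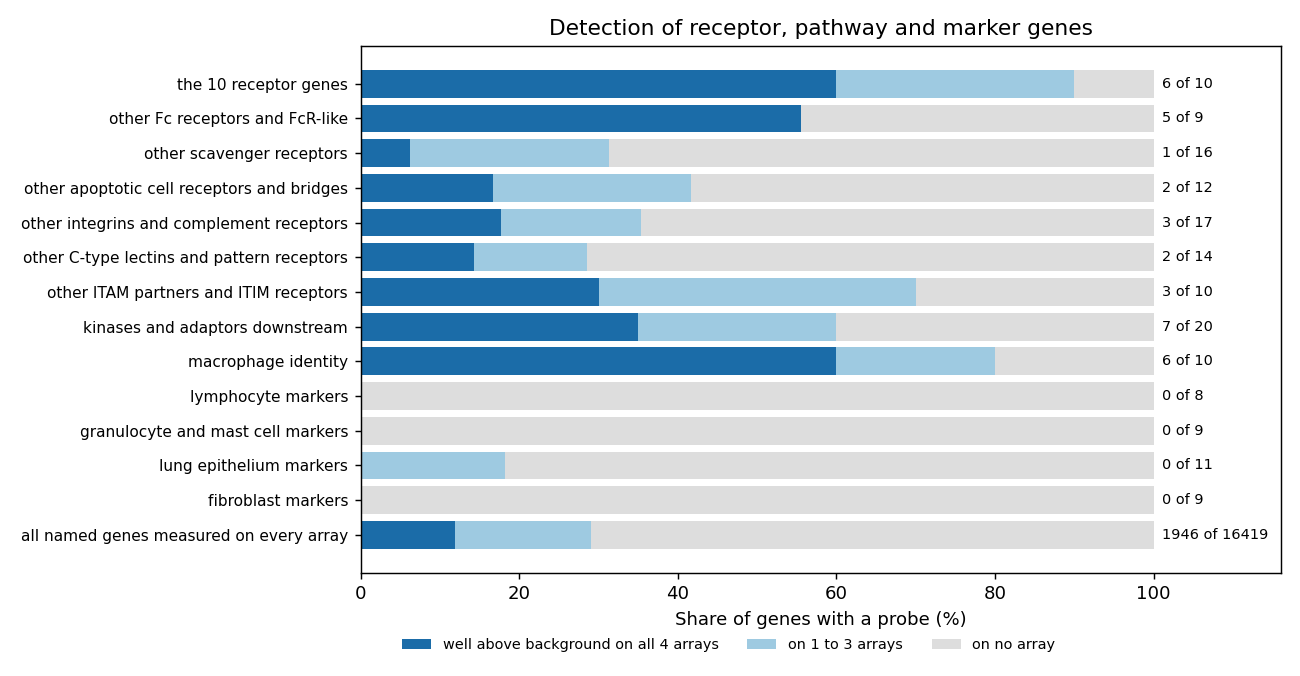
Share of genes with a probe (%) that passed on every array, on some or on none, for the 10 receptor genes, 7 pathway lists, 5 marker lists and all named genes measured on every array. Numbers on the right count the genes detected on all 4 arrays. The receptor genes (6 of 10) and the other Fc receptors (5 of 9) have the longest dark bars among receptor lists, and the other scavenger receptors (1 of 16) the shortest.

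A gene that did not pass has only an upper bound from its probe and was not shown to be absent. For Cd36 and Clec7a, 1 probe passed on all arrays and the other did not. The same held for some genes of the lists, Sirpa and Cd47 among them.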

How the data were processed

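Spot intensity of 4 one-colour Cy3 arrays, 1 per culture, was analysed. Group and replicate came from the sample titles. The deposited scanner files hold linear intensity: a processed signal, from which Feature Extraction had subtracted background (the submitters' processing notes give 11.0.1.1), with no scaling between arrays, beside median pixel and local background intensity, and spot flags. The build of the array design is older than assembly GRCr8 of the RefSeq table used for names, so no coordinates are given.

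Gene spots only were used, without those flagged non-uniform or population outlier (596, 546, 560 and 1296 gene spots). Log2 signals of a probe's spots were averaged, and each array's 75th percentile of detected probes was subtracted. For the 1350 probes with 3 or more usable spots everywhere, arrays were compared with limma version 3.58.1 in R version 4.3.3 (moderated F test, spots as repeats, Benjamini-Hochberg adjusted p below 0.05). Contrasts were adjusted over all pairs and probes. The procedure was tested on simulated data with independent spot noise and no shift of whole arrays. That test therefore does not bear on differences between whole arrays. The rest used Python version 3.11.15. Genes were compared by their detected probe of highest mean level.

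The members and lists were chosen with earlier results of these data known, and the ratio to median pixel signal was added after the spots were seen. Named were all members, the first 3 detected genes of each pathway list and the first 2 well above background on none of the arrays, in written order, and the 2 nearest genes per detected member; a gene that this rule names is not reported here. Alternatives changed the detection rule, scaling, background correction (normexp with an offset of 50), spot filter, and left out each replicate.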

Additional observations from a re-analysis of the deposited data

Results flagged for a closer look

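Marco and Mertk each had 1 array far from the others. The gap between replicate 4 and the nearest other array took up 0.912 of the whole range of Marco levels (-6.63, -6.42, -6.20 and -1.70 on replicates 1 to 4) and 0.926 of that of Mertk (-6.23, -5.89, -5.91 and -1.64), above Dixon's critical value for 4 samples. Both probes were not well above background on replicates 1 to 3, so that the levels there, and with them these ratios, rest on values at or near background. Mertk, but not Marco, passed the limit set by negative control spots on replicates 1 and 2. Chance flags about 1 in 20 groups, and 5.30% of 45068 probes measured on every array passed the same limit, most of them through a high value on replicate 4 (4.28% of all probes). Of the 12 probes of the 10 genes, these 2 passed. With normexp background correction the levels of Marco were -2.90, -2.47, -2.28 and -1.94 and those of Mertk -2.76, -2.48, -2.26 and -1.73. Normexp starts from the median pixel signal and adds an offset of 50 to every spot, which by itself narrows log2 differences between dim spots. How far the offset and the median pixel signal each narrowed these ranges was not tested.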

How the results depend on the processing

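The count of 6 detected members held under every detection rule and without any replicate. The pathway lists had 23 detected genes, 36 by negative control spots and 23 to 27 without 1 replicate, while named genes had 1946 and, by negative control spots, 3329. No detected member ranged over 2-fold between arrays, but 6 did when scaled by all gene probes, 5 without scaling and 1 after quantile normalization, and 0 without any 1 replicate; the first 2 settings leave in or add differences in brightness of whole arrays. Of the 3 members tested over spots, 2 to 3 differed between arrays without 1 replicate, and Tyrobp lost its call without replicate 3 and with normexp, as given above; the cause was not tested. The count of all probes called was 1093, with 784 after quantile normalization, 1156 with normexp, 1273 scaled by all gene probes and 1302 without scaling. The order of arrays for Fcgr1a and Cd36 changed with normexp, as given above. No paired analysis was possible because there was 1 group. The slide could not be tested, since all arrays lay on 1 slide, and averaging a gene's detected probes was not run, since each detected member had 1. Signal over background limits Itgb2, Marco, Msr1, Mertk and the second probes of Cd36 and Clec7a.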

Other observations

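2 marker genes of lung epithelium, named after their values were seen, had the same pattern as Marco and Mertk on probes printed once. Krt8, a keratin, had signals of 3.14, 2.85, 3.14 and 137 on replicates 1 to 4. The first probe of Sftpb, surfactant protein B, had 3.22, 3.02 and 3.58 on replicates 1 to 3 and was well above background on replicate 4 alone. Pigr, the polymeric immunoglobulin receptor and the last of the 5 detected genes related to Fc receptors in its list, had 73.9, 56.3, 69.9 and 324 on 1 probe and 3.55, 3.10, 3.87 and 12.3 on the other, which passed on none. Fcgr2a and Fcrla, of the same list and with probes printed 10 times, had no such value on replicate 4, where their signals were 1062 and 211 against lowest values of 1037 and 194 on replicate 3.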
